A study of Mus musculus with 6 samples.

Results

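Cytosolic ribosomal protein genes were examined in subcutaneous white adipose tissue (scWAT) RNA-seq libraries. The members were all genes whose symbol names a protein of the large (Rpl, Rplp) or small (Rps, Rpsa) cytosolic subunit or a close paralogue, without genes named as pseudogenes. This rule on symbols found 89 of the 55401 genes in the files, 53 of the large and 36 of the small subunit. Of these, 86 had enough counts to be tested. Rpl10l and Rps12l1 had 0 counts in all 6 libraries, and Rpl32l had 1 to 28 counts. The rule reads symbols only. Rpl6l, Rpl32l, Rps12l1, Rps3a2, Rps3a3 and Rps4l had 0 protein-coding transcripts in the GENCODE vM21 annotation, where Rpl6l and Rps12l1 were typed as processed pseudogenes.

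Both groups were male mice aged 8 weeks that carried homozygous floxed alleles of Yap and Taz, the transcriptional coactivators of the Hippo pathway. The 3 mice labelled WT, called YT-FF in the study's methods, had no Cre recombinase. The 3 labelled YT-AKO (Yapfl/fl/Tazfl/fl;AdipoqCre) had in addition a Cre driven from the Adipoq promoter, whose activity lies in mature adipocytes, so the deletion was aimed at these cells and not at the others of the depot. The floxed lines came from a mixed C57BL/6 and 129 background and the Cre line from C57BL/6. No treatment was given, and the mice were housed at room temperature.

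Ribosomal proteins join the ribosomal RNAs in the nucleolus to form the large and small subunits that translate mRNA. Their genes are among the most highly expressed in nearly all cells, and their short mRNAs typically begin with a C followed by a run of pyrimidines, the 5′ terminal oligopyrimidine (TOP) motif, through which mTORC1 and LARP1 control their translation. Most members have a single functional gene and many processed pseudogenes, while a few have a second functional copy used in particular tissues, such as Rpl3l in striated muscle.

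The start sites show what this motif looks like in members described here. Each stretch was taken from RefSeq (build GRCm38.p6) and holds the 15 bases before and the 15 bases from an annotated start. Capitals mark a C at the start and the pyrimidines that follow it. Rplp2 is one of the members with the largest log2 fold change, Rps6 is the target of the ribosomal S6 kinases, Rps10 has most of its sequence family's counts on pseudogenes, and Rps27 and Rps27l are a pair of paralogues of which Rps27l has no such run at this start.
Rplp2, chr7:141447636-141447665, plus strand: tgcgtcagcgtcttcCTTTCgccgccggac
Rps6, chr4:86857353-86857382, minus strand: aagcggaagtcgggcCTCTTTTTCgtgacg
Rps10, chr17:27635230-27635259, minus strand: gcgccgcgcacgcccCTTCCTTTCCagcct
Rps27, chr3:90213634-90213663, minus strand: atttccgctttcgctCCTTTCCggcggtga
Rps27l, chr9:66946071-66946100, plus strand: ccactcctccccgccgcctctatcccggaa

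A C at the start within an unbroken run of at least 5 pyrimidines, read on the gene's own strand, was found at a start of 14 of the 64 members with a RefSeq window (21.9%) and of 813 of all 27025 genes with one (3.01%). The other 25 members had no window. An annotated start that is off by a base hides the run, so a missing match says only that the letters were not at that base. Calls are at an adjusted p under 0.05 in the test described below, where 12.6% of all 16807 tested genes were higher and 9.01% lower. Of the 13 tested members with the run, 5 were called higher in YT-AKO (median log2 fold change 1.39). Of the 49 tested members with a window and no run, 14 were (median 1.28). Of the 24 tested members without a window, 5 were higher and 1 was lower (median 1.38).

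The libraries held 17740987 to 21838493 counted fragments. Yap1, the gene of YAP, was lower in YT-AKO (log2 fold change −0.98, SE 0.167, adjusted p = 0.0179), while the counts of Wwtr1, the gene of TAZ, were higher (0.89, SE 0.182, adjusted p = 0.022). Counts over the whole gene do not show the state of the deleted exons, but the direction of Wwtr1 goes against the label, so YT-AKO stands throughout for the libraries labelled so. At the level of protein, the study's immunoblots of YT-AKO scWAT showed a clear drop of YAP and TAZ. Library YT-AKO 2 stood apart from the other 5 in the share of its counts on the members, and the counts of calls and most named results below are given with and without it. In each library, the deviation of a tested gene from its mean over libraries was related to the gene's exon length, with a Spearman's rho across genes of 0.312 to 0.359 in WT and of −0.184, −0.382 and −0.200 in YT-AKO 1, 2 and 3, so that short genes stood higher in YT-AKO and most of all in YT-AKO 2. In bulk tissue, fewer cells of a type and less RNA per cell cannot be told apart.

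The members took a larger share of the fragments in YT-AKO. They held 3.08%, 2.97% and 3.06% of all counted fragments in WT 1, 2 and 3 and 3.81%, 9.26% and 3.61% in YT-AKO 1, 2 and 3. All YT-AKO libraries lay above all WT libraries, by a margin that was wide in YT-AKO 2 and small in YT-AKO 1 and 3. The group means were 3.04% ± 0.0577 and 5.56% ± 3.21 (SD, n = 3), a difference of 2.53 percentage points that was 0.676 without YT-AKO 2. Wilson 95% intervals, which cover counting error only, spanned at most 9.25% to 9.27% in a library. Counts on named ribosomal protein pseudogenes separated the groups in the same direction, with 0.081% to 0.0828% in WT and 0.0956%, 0.251% and 0.0956% in YT-AKO.

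**Figure D1:**
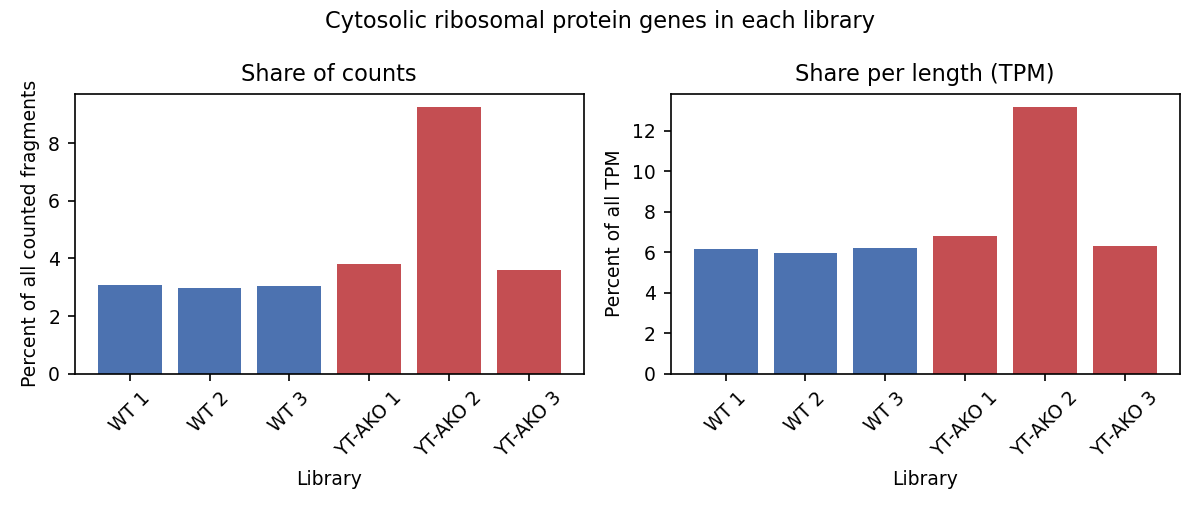
Bars show the share of the 89 ribosomal protein genes in each of the 6 libraries, as a percent of counted fragments (left) and as a percent of the summed TPM (counts per kilobase of exon, scaled to the same total in each library; right). YT-AKO 2 reached 9.26% of fragments and 13.2% of TPM, while YT-AKO 1 and 3 lay at 3.81% and 3.61% of fragments and at 6.81% and 6.33% of TPM, close to the 5.98% to 6.19% of TPM in WT.

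In TPM, which divides counts by exon length before scaling each library, the gap of the other libraries was narrower. A gene has the same length in every library, so TPM does not remove the relation of the deviations to exon length. The members made up 6.16%, 5.98% and 6.19% of the total TPM in WT 1, 2 and 3 and 6.81%, 13.2% and 6.33% in YT-AKO 1, 2 and 3. All YT-AKO libraries still lay above all WT libraries, and YT-AKO 3 lay next to the highest of these, WT 3.

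Between the genotypes, 24 of the 86 tested members were higher in YT-AKO at an adjusted p under 0.05 (27.9%, with 12.6% of all 16807 tested genes called higher), 1 was lower (1.16%, with 9.01% of all genes), and 61 were not called. The test was edgeR's quasi-likelihood test on counts scaled by TMM factors, with p-values adjusted by Benjamini and Hochberg's method across all genes tested. The log2 fold change (YT-AKO over WT) was above 0 in 85 members and below 0 in 1, with a median of 1.31 and an interquartile range of 1.05 to 1.62, beside a median of −0.02 over all tested genes. The subunits gave similar values, with 16 of 51 higher and a median of 1.27 for the large subunit and 8 of 35 higher and a median of 1.35 for the small one. At the study's own threshold (adjusted p under 0.01, log2 fold change over 1 in size), 0 members were higher in this edgeR fit (0.0892% of all genes). Rpl29 was the 1 that was lower (0.0357% of all genes). At an unadjusted p under 0.05, with no limit on the fold, 78 members passed, beside 6852 of all 16807 tested genes. The study made its own calls with DESeq2. By the study's threshold, DESeq2 placed 36 members higher (7.96% of all genes) and limma-voom 0 (0.131% of all genes).

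The count of 24 changed with the libraries used. It was 60 without YT-AKO 2 (69.8%, with 16.9% of all genes called higher), 45 without YT-AKO 1 (52.3%, with 12.7% of all genes) and 43 without YT-AKO 3 (50%, with 10.2% of all genes). All 24 were among the 60. Without WT 1 or WT 2 no member was called higher, but neither was any other gene (0% of all genes), so these fits say little about the members. Without WT 3 there was 1 member (1.16%), a share below the 4.03% of all genes. DESeq2 called 72 (83.7%, with 18% of all genes). With a correction for gene length, 4 members were higher (4.65%), a share below the 9.59% of all genes. These were Rpl39l, Rps27l, Rpl7l1 and Rps4l, all paralogues of other members. With that correction and without YT-AKO 2 there were 37 (43%, with 15.3% of all genes).

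**Figure D2:**
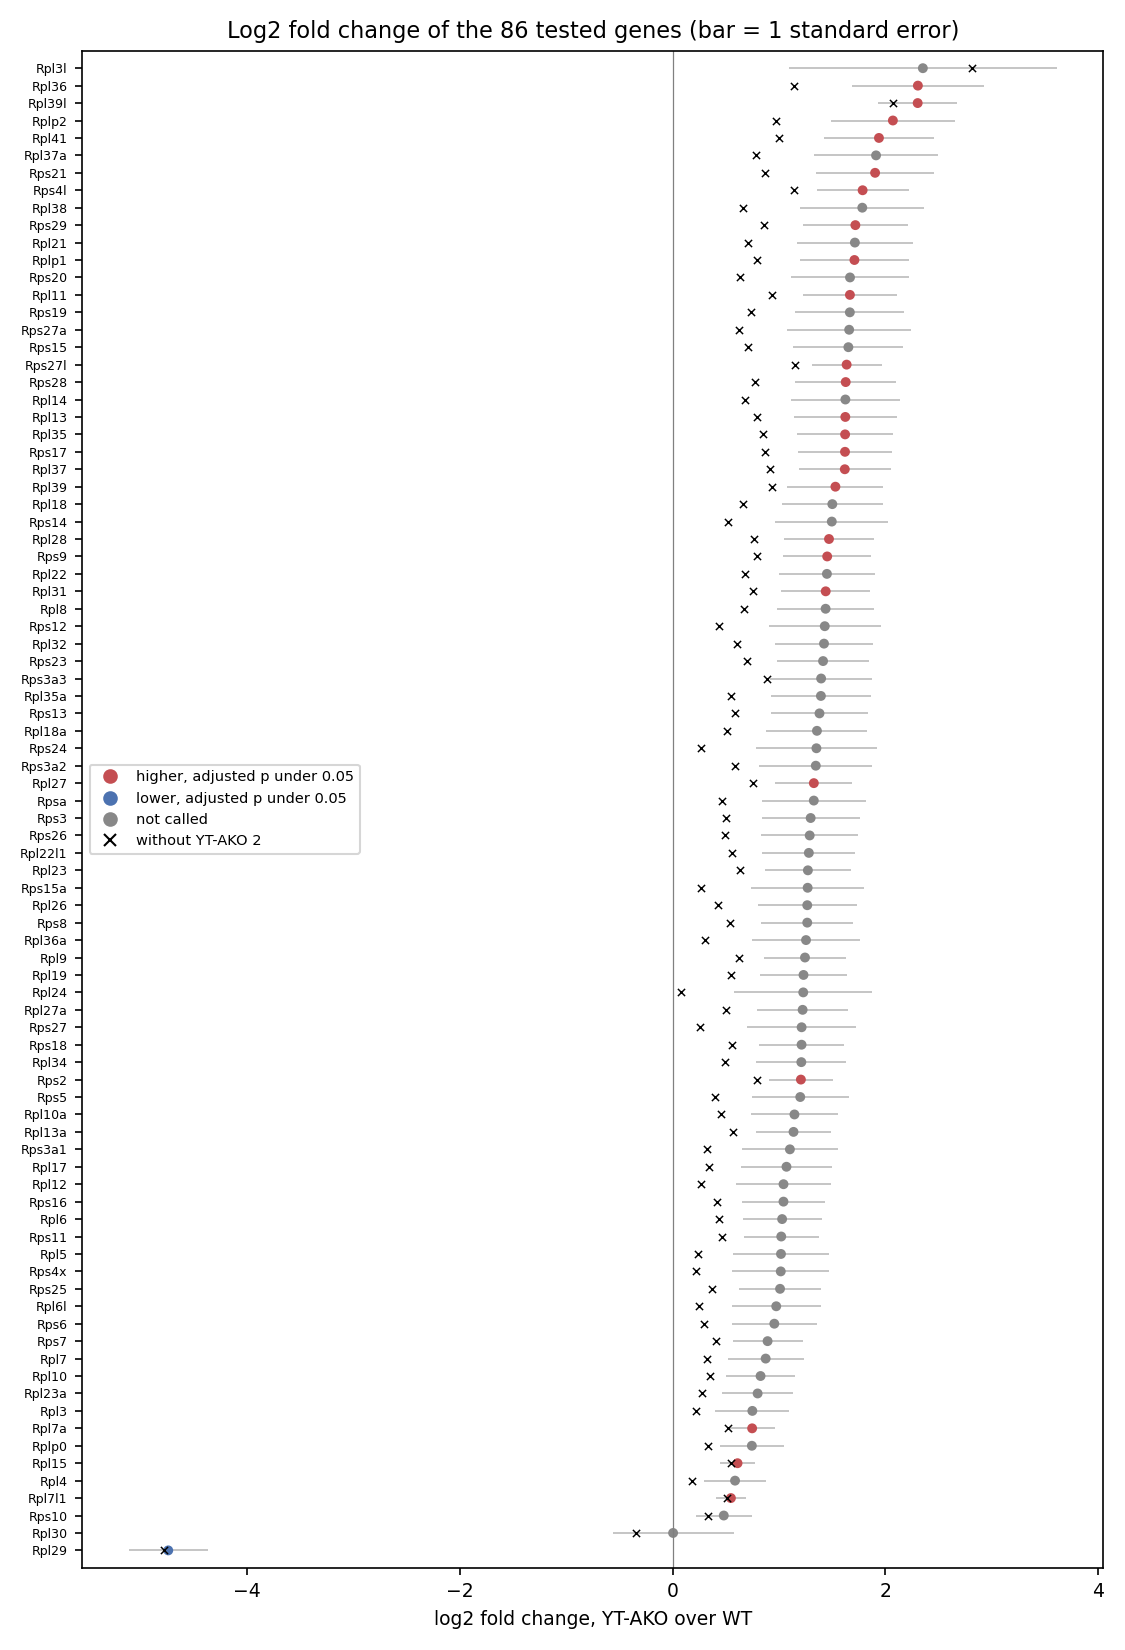
Points give the log2 fold change of YT-AKO over WT for each of the 86 tested members with 1 standard error, coloured by the call at an adjusted p under 0.05, and crosses give the value without YT-AKO 2. Rpl29 at −4.74 stands alone on the left, and most crosses lie nearer to 0 than their points, with a median of 0.56 against 1.31.

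In CPM (counts scaled by library size and TMM factor), every YT-AKO library lay above every WT library in 81 of the 86 tested members (94.2%), a pattern that 25.7% of all tested genes showed. Rpl29 lay below in all (25.8% of all genes), and Rpl30, Rps10, Rpl24 and Rpl3l overlapped. With library totals alone, 65 members lay above (15.4% of all genes), and in TPM 33 did (7.52% of all genes). These scales also moved the reference. In TPM the median difference on the log2 scale was 0.42 over the members and −0.63 over all tested genes, and for YT-AKO 1 and 3 alone it was 0.10 and −0.42. The members thus stood above the typical gene on each scale, but their own direction in YT-AKO 1 and 3 depended on the scale, with 84 above the WT mean in TMM-scaled CPM and 56 in TPM.

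**Figure D3:**
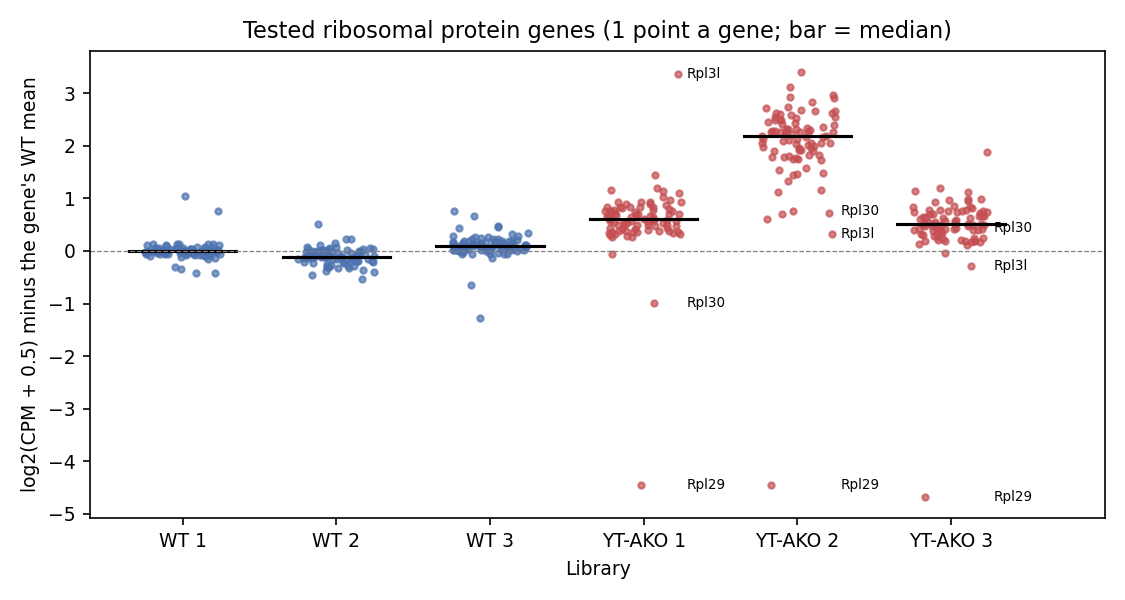
Each point is 1 of the 86 tested members in 1 library, as log2(CPM + 0.5) minus the gene's mean over the WT libraries, with bars at the medians. The YT-AKO 2 cloud lies above those of YT-AKO 1 and 3, and Rpl29 lies far below the rest in all 3 YT-AKO libraries.

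YT-AKO 2 exceeded the mean of YT-AKO 1 and 3 in 85 of 86 members, by a median of 1.56 on the log2 scale, with Rpl36 highest (2.24) and Rpl3l lowest (−1.22). YT-AKO 1 and 3 in turn exceeded WT in 84 of 86, by a median of 0.55. Shorter members differed more, with a Spearman's rho of −0.32 between the excess of YT-AKO 2 and the median coding transcript length over 82 members, and −0.22 for YT-AKO 1 and 3 over WT. These members share libraries, so no p is given.

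Among the proteins of the large subunit, Rpl36 had the largest called difference. Its level was 133, 108 and 168 CPM in WT 1, 2 and 3 and 309.6, 1424 and 292 CPM in YT-AKO 1, 2 and 3. The groups did not overlap, and YT-AKO 2 stood far above the others of its group. The log2 fold change was 2.31 (SE 0.622, adjusted p = 0.0384) and was 1.14 without YT-AKO 2 (adjusted p = 0.00419). Rpl41, which encodes one of the smallest proteins known in eukaryotes, showed the same shape, with 389, 358 and 424 CPM in WT against 793, 2929 and 772 CPM (log2 fold change 1.94, SE 0.521, adjusted p = 0.0381, and 1.0 without YT-AKO 2, adjusted p = 0.00208).

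The acidic stalk of the large subunit, where elongation factors dock, is built from the proteins of Rplp0, Rplp1 and Rplp2. Rplp2 stood at 360.1, 293 and 379.5 CPM in WT and 669.6, 2988 and 681 CPM in YT-AKO (log2 fold change 2.07, SE 0.586, adjusted p = 0.043, and 0.97 without YT-AKO 2, adjusted p = 0.00328). Rplp1, which had the highest TPM of all members, stood at 684, 621 and 731 CPM against 1204, 4307 and 1148 CPM (1.71, SE 0.513, adjusted p = 0.0497, lost with limma-voom at 0.0588 and in other alternatives, and 0.79 without YT-AKO 2, adjusted p = 0.00448). Rplp0, the stalk's base and a common reference gene, had 1020.0, 1017 and 1032 CPM against 1285, 2571 and 1289 CPM. All 3 YT-AKO libraries of Rplp0 lay above WT in CPM without passing the test (0.75, SE 0.302, adjusted p = 0.105, and 0.33 without YT-AKO 2), and in TPM its YT-AKO 1 and 3 values, 2160.0 and 2112, lay below the 2245 to 2420.0 of WT.

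Rpl13 (adjusted p = 0.0481) and Rplp1 were the called members closest to the threshold, and Rpl37a (0.0525) and Rps19 (0.0526) lay just outside it. Rpl37a, at 239, 207 and 247 CPM in WT and 412, 1811 and 386 CPM in YT-AKO, had a larger log2 fold change (1.91) than Rpl13 (1.62). Without YT-AKO 2 these 4 were at 0.74 to 0.79 and all were called (adjusted p = 0.00444 to 0.00567). The line between called and not called therefore did not follow the size of the difference.

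In the small subunit, Rpsa, which encodes the laminin receptor of the head region, was among the most counted members. It had 1068, 1086 and 1094 CPM in WT and 1528, 5171 and 1454 CPM in YT-AKO (log2 fold change 1.33, SE 0.488, adjusted p = 0.0827). Rps6 had 583, 606 and 561 CPM against 759, 1959 and 677 CPM (0.96, SE 0.4, adjusted p = 0.114). Rps27a, whose product is made as a fusion with ubiquitin, had 242, 171 and 319 CPM against 398, 1563 and 352 CPM (1.66, SE 0.581, adjusted p = 0.0729). In each the YT-AKO libraries lay above all WT libraries in CPM. None of the 3 passed the main test. Without YT-AKO 2 their log2 fold changes were 0.46, 0.30 and 0.62, and Rpsa passed (adjusted p = 0.0226). With DESeq2, Rpsa (adjusted p = 0.0172) and Rps27a (0.0094) passed.

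Rps3a1 and Rps15, also of the small subunit, were among the 5 with the highest TPM. Rps3a1 had 3208, 3407 and 3036 TPM in WT and 3073, 5836 and 2779 TPM in YT-AKO, so its groups overlapped on this scale. Rps15 had 2118, 1983 and 2103 TPM against 2443, 5897 and 2462 TPM, with no overlap. Their log2 fold changes were 1.10 (adjusted p = 0.107) and 1.65 (adjusted p = 0.0553). Without YT-AKO 2 they were 0.33 (adjusted p = 0.071) and 0.71 (adjusted p = 0.00548), and with DESeq2 both passed (adjusted p = 0.0371 and 0.00436).

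At the other end, Rpl4, an early-assembling protein of the exit tunnel, was among the 5 members with the smallest log2 fold change. Its level was 847, 841 and 859.9 CPM in WT and 1019.9, 1892 and 915 CPM in YT-AKO (log2 fold change 0.59, SE 0.294, adjusted p = 0.171), and the log2 fold change was 0.19 without YT-AKO 2. With a length correction and without YT-AKO 2 it was −0.04, and Rpl24 (−0.14), Rps4x (−0.03) and Rpl30 (−0.43) were negative there too.

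Rpl29 was the only tested member with a negative log2 fold change. It encodes a large-subunit protein and lies at chr9:106429454-106431568 (mm10, plus strand). Its counts were 2502, 2330 and 4441 in WT 1, 2 and 3 and 99, 97 and 82 in YT-AKO 1, 2 and 3. In CPM this was 107, 102 and 229 against 5.76, 5.72 and 4.85, or 146 ± 71.7 against 5.44 ± 0.516 (SD, n = 3). WT 3 stood far above the other WT libraries, the 3 YT-AKO libraries were close together, and YT-AKO 2 did not stand apart here. The log2 fold change was −4.74 (SE 0.372, adjusted p = 0.00729) by edgeR, and the exact two-sided permutation test of the CPM over libraries gave p = 0.1, the smallest that 3 against 3 allows. Without WT 1, where no gene at all was called, the adjusted p was 0.079 (log2 fold change −4.93), and in the other 18 alternatives the call held.

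Fragments of Rpl29 can also land on processed pseudogenes, since fragments that map to several places were left out. In the annotation, 14 pseudogenes shared at least 10% of its 50-base words. The largest, Gm13841 on chromosome 5, had 143, 154 and 61 counts in WT and 245, 647 and 242 in YT-AKO, and Gm8210 on chromosome 1 had 65, 82 and 3 against 106, 169 and 115. Both had their lowest count in WT 3, where Rpl29 had its highest. Not every copy was higher in YT-AKO, since Gm10709 on chromosome 9 had 38, 33 and 22 counts in WT against 2, 4 and 4. With all 14 copies added, the level was 118, 115 and 234 CPM in WT and 27.6, 59.5 and 27.2 CPM in YT-AKO, which did not overlap (log2 fold change −2.03, SE 0.407, adjusted p = 0.0212). The size of the difference therefore depended on how the copies were counted, and its direction and its call at an adjusted p under 0.05 did not. At the threshold of 0.01 the call was lost with the copies added.

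Around Rpl29, 21 other tested genes lay within 0.5 Mb. Alas1 (log2 fold change 1.09), Acy1 (0.64), Tex264 (1.43) and Manf (1.24) were higher, Col6a4 (−1.38) and Tlr9 (−2.19) were lower, and the rest were not called. These are 4 higher and 2 lower of 21, where 12.6% of all tested genes were higher and 9.01% lower. The neighbour with the largest negative value, Tlr9, was well short of the −4.74 of Rpl29.

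Rpl30, also of the large subunit, was the member with a log2 fold change nearest to 0. Its counts were 4818, 3941 and 969 in WT and 1039, 3466 and 2793 in YT-AKO, so that WT 3 and YT-AKO 1 were low and the groups overlapped (log2 fold change 0.00, SE 0.57, adjusted p = 0.996). Its processed pseudogene Gm12191 on chromosome 11, which held 22.5% of its 50-base words, ran the other way, with 33, 20 and 2732 counts in WT and 3110, 8759 and 1411 in YT-AKO. Rpl30 held 99.3% and 99.5% of the counts on both in WT 1 and 2, 26.2%, 25% and 28.4% in WT 3, YT-AKO 1 and YT-AKO 2, and 66.4% in YT-AKO 3. With its 7 copies added, Rpl30 stood at 208, 175 and 193 CPM in WT and 243, 745 and 250.4 CPM in YT-AKO. The groups then did not overlap, and the log2 fold change was 1.11 (SE 0.429, adjusted p = 0.0937), beside the median of 1.31 over the members.

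**Figure D4:**
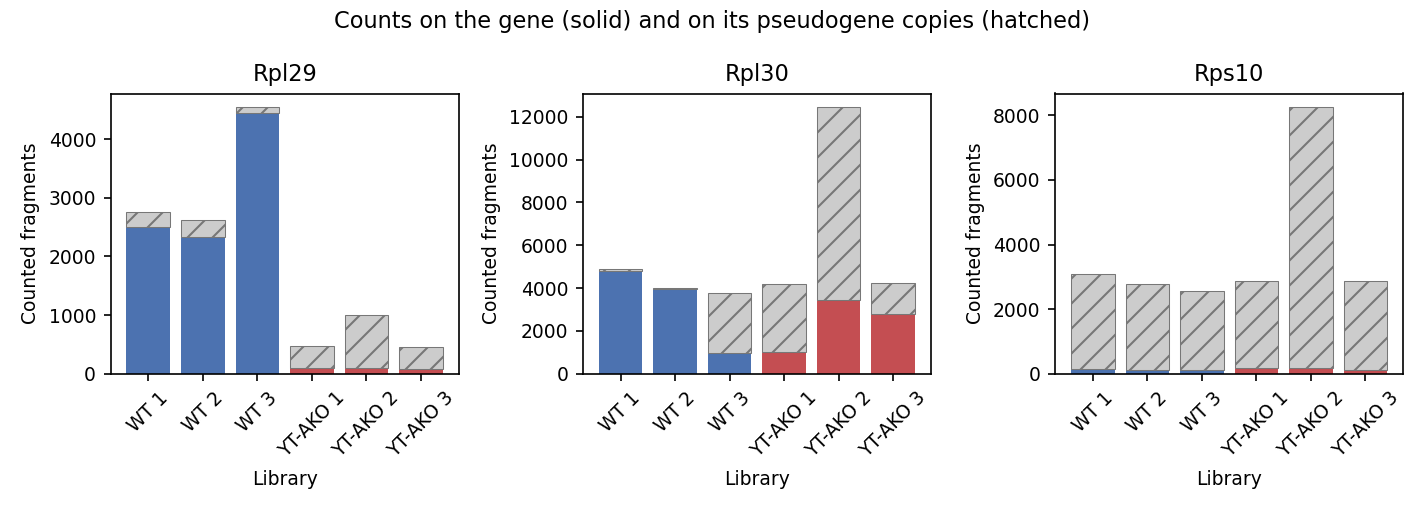
Bars give the counted fragments on Rpl29, Rpl30 and Rps10 (solid) and on their annotated pseudogene copies (hatched) in each library. Rpl29 stays lower in YT-AKO with its copies, the division of Rpl30 with Gm12191 does not follow the genotype, and Rps10 has most of its counts on the copies.

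Rps10, a small-subunit protein, had still more of its counts on copies. The gene itself had only 6.73, 5.67 and 6.64 CPM in WT and 9.88, 10.6 and 6.15 CPM in YT-AKO (log2 fold change 0.48, SE 0.263, adjusted p = 0.204), while its pseudogene Rps10-ps2 had 2820, 2542 and 2291 counts against 2524, 7401 and 2573. In all, 96.1% of its family's counts lay on the copies, and with these added the log2 fold change was 1.11 (adjusted p = 0.0857). Copies of this kind, 354 in all with 258666 counts, were found for 69 members. Adding them to every member gave 25 higher and 1 lower with a median of 1.33, so the count over the members was little changed.

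Fragments over exons shared by several genes were left out too. Rpl24 overlapped Gm28037 over 47% of its exon length and was left with 1.83 to 3.45 CPM in WT and 2.27 to 12 CPM in YT-AKO. Rpl35 overlapped Wdr38 over 66.2% and Rpl23a overlapped Tlcd1 over 62.3% of theirs. Rpl13a overlapped Gm45713 over 35.4% and had 15.6 to 17.1 CPM in WT. Rps10, Rpl5, Rpl31, Rps25 and Rpl30 overlapped other genes over 24.8% to 28.7%. Counting used no strand, so the levels of these members are uncertain.

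Paralogues were set against their parent genes as a log2 ratio per kilobase within each library, which the library's scale cannot alter. Of 7 pairs, 6 had enough counts, and the exact two-sided permutation test, adjusted over these 6, cannot go below p = 0.1 before adjustment. The ratio does not remove the relation to exon length described above. Among the tested pairs, every paralogue but Rpl7l1 had a shorter exon length than its parent. The part of length in the ratios was not tested. Rpl10l, the autosomal copy of Rpl10, had 0 counts, which allows up to 3 fragments in a library. Rps4l is a second copy of the X-linked Rps4x with 0 annotated protein-coding transcripts. It stood at −4.30, −4.53 and −3.69 relative to Rps4x in WT and at −3.34, −3.46 and −3.09 in YT-AKO. The groups did not overlap, and the difference was 0.88 (exact permutation p = 0.1, adjusted 0.2). Rps27l, a p53-responsive relative of Rps27, stood at −2.46, −2.29 and −2.24 against −1.51, −2.22 and −1.36, a difference of 0.63 (exact permutation p = 0.1, adjusted 0.2) with YT-AKO 2 next to the WT libraries.

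Rpl39l, known mainly from male germ cells, stood at −5.80, −6.00 and −6.48 relative to Rpl39 in WT and at −5.37, −5.76 and −4.73 in YT-AKO, a difference of 0.81 (exact permutation p = 0.1, adjusted 0.2) in a gene with 332 counts in all. In CPM Rpl39l was called higher, with 1.15, 0.747 and 1.24 in WT against 3.66, 6.72 and 5.14 in YT-AKO (log2 fold change 2.30, SE 0.372, adjusted p = 0.0177). Rps27l (1.64, adjusted p = 0.0217) and Rps4l (1.79, adjusted p = 0.03) were called higher too. Without YT-AKO 2 these 3 were at 2.07, 1.15 and 1.14 and still called.

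The remaining ratios did not separate the groups. Rpl22l1 over Rpl22 differed by −0.14 (exact permutation p = 0.2, adjusted 0.3). Rpl7l1 over Rpl7 differed by −0.20 (exact permutation p = 1), and YT-AKO 2 at −4.48 was the outlying library beside −3.32 and −3.35 in YT-AKO 1 and 3 and −3.47 to −3.56 in WT. This pair turned to 0.18 without YT-AKO 2. Rpl7l1, a nucleolar relative of Rpl7, was also the member in which YT-AKO 2 exceeded its group least among those called higher, with 67.6, 62.8 and 70.2 CPM in WT and 101, 103 and 89.3 CPM in YT-AKO (log2 fold change 0.55, SE 0.144, adjusted p = 0.036).

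**Figure D5:**
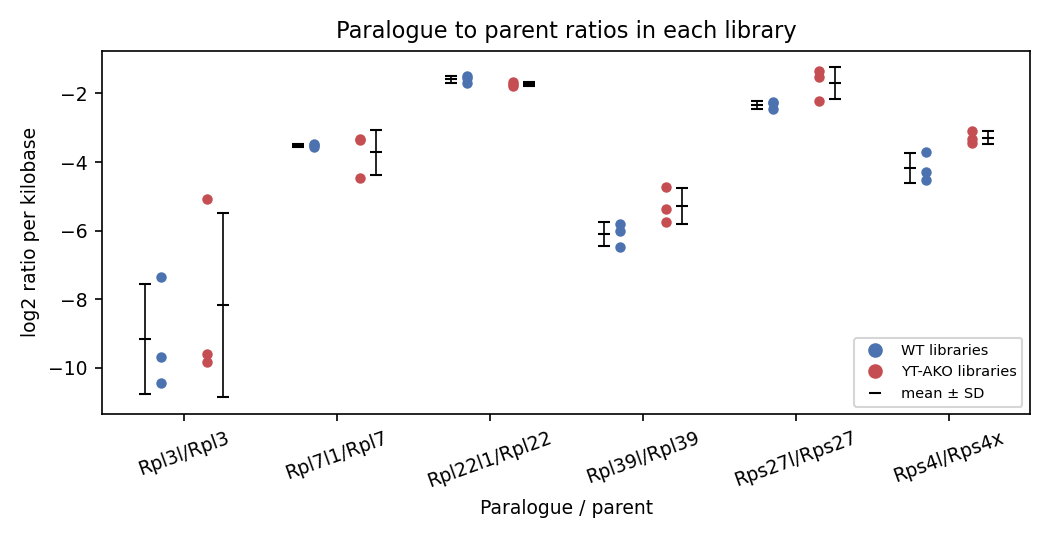
Points give the log2 ratio per kilobase of each paralogue over its parent gene in the 3 WT and 3 YT-AKO libraries, with means and SD beside them. Rps4l, Rps27l and Rpl39l show no overlap between the groups, Rpl3l spreads widely, and Rpl7l1 has YT-AKO 2 below the other 5.

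Rpl3l had the largest log2 fold change of all tested members (2.35) and did not pass the test (SE 1.26, adjusted p = 0.196). Its counts were 42, 8 and 4 in WT and 188, 15 and 7 in YT-AKO, so WT 1 and YT-AKO 1 were high and the groups overlapped. Markers of skeletal muscle followed the same libraries, with a summed level of 469, 152 and 218 CPM in WT and 3269, 516 and 261 CPM in YT-AKO over 7 genes, of which 1 (Acta1) was called higher. Without YT-AKO 1, Rpl3l stood at −0.27. The part of muscle RNA in its value was not tested.

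Among genes of ribosomal proteins whose names the rule does not take, Fau and Rack1 had the largest and the smallest log2 fold change. Fau, which makes a small-subunit protein fused to a ubiquitin-like domain, had 313, 286 and 327 CPM in WT against 523, 1818 and 484 CPM in YT-AKO (log2 fold change 1.61, adjusted p = 0.0545). Rack1, a signalling scaffold on the small subunit, had 624, 644 and 649.7 CPM against 803, 1665 and 782 CPM (0.76, adjusted p = 0.109). These extremes did not pass the test, and in both all YT-AKO libraries lay above all WT libraries.

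Other lists of the translation machinery had smaller medians in the main fit. Of 38 translation initiation factors, 13 were higher and 0 lower, with a median log2 fold change of 0.57, where 12.6% of all tested genes were higher and 9.01% lower. The largest was Eif1, which sets start codon choice (1.39, adjusted p = 0.0281), and the smallest Eif3j2 (−0.71, adjusted p = 0.35). Of 14 elongation and termination factors, 1 was higher and Eif5a2 was lower (−1.10, adjusted p = 0.0245), with a median of 0.18. The largest value there belonged to Eef1a2, the elongation factor form of muscle and neurons (2.57, adjusted p = 0.188). Of 18 genes with TOP mRNAs other than the members, 1 was higher, with a median of 0.71 from Fau down to Hnrnpa1 (−0.45, adjusted p = 0.074).

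Among genes that build ribosomes, most calls were higher. Of 48 ribosome biogenesis factors, 10 were higher and 1 was lower with a median of 0.36, and the extremes were Nhp2, a protein of the box H/ACA particles (1.56, adjusted p = 0.0517), and Mdn1, a giant ATPase of large-subunit maturation (−1.06, adjusted p = 0.0251). Of 21 tested genes of RNA polymerase I and its factors, 7 were higher with a median of 0.45, from Polr2f, a subunit shared by the polymerases (1.98, adjusted p = 0.0263), to Tcof1 (−0.46, adjusted p = 0.0887). Of 11 snoRNA host genes, 2 were higher with a median of 0.74, from Snhg20 (1.68, adjusted p = 0.0445) to Snhg17 (−0.15, adjusted p = 0.647). In the mTORC1 pathway, 6 of 28 were higher and 2 lower with a median of 0.18, from Lamtor2 (1.61, adjusted p = 0.034) to Eif4ebp3 (−1.38, adjusted p = 0.0658). The medians of these lists in the main fit lay between those of all genes (−0.02) and of the members (1.31). The differences between lists were not tested. Without YT-AKO 2 the medians were 0.40 for initiation, 0.16 for elongation and termination, 0.33 for TOP mRNAs, 0.25 for biogenesis, 0.17 for RNA polymerase I, 0.22 for snoRNA hosts and 0.14 for mTORC1, beside 0.56 for the members. With the length correction as well, they were 0.56, 0.13, 0.51, 0.40, 0.50, 0.59 and 0.31 in the same order. The members were then at 0.39 and no longer stood highest. In the main fit, the shares called higher among elongation and termination factors and among TOP mRNAs were below the 12.6% of all genes. With YT-AKO 2 left out, 4 of 14 and 8 of 18 were higher, where 16.9% of all genes were. In each of these 2 lists 1 gene was lower (14% of all genes). Initiation factors then had 17 of 38 higher, biogenesis factors 15 of 48 higher and 3 lower. RNA polymerase I genes had 8 of 21 higher, snoRNA hosts 2 of 11, and the mTORC1 pathway 9 of 28 higher and 2 lower.

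Some of the tissue's cell markers differed between the genotypes, in a fit where 12.6% of all tested genes were higher and 9.01% lower. Adipocyte markers summed to 17940 to 23644 CPM in WT and 40097 to 84112 CPM in YT-AKO, with 4 of 9 higher and the highest sum in YT-AKO 2, where the members were highest too. Brown and beige adipocyte markers summed to 175 to 264 CPM against 1727 to 3667 CPM, with 7 of 8 higher. B cell markers, at 2126 to 2625 CPM in WT and 1326 to 2109 CPM in YT-AKO, had 6 of 10 lower. Without YT-AKO 2 it was 10 of 10, where 14% of all genes were lower. Macrophage markers had 3 of 9 higher and fibroblast markers 2 of 8 higher and 1 lower. T cell markers had 1 of 10 lower (median log2 fold change 0.04), near the share of all genes, and endothelial markers 1 of 6 lower. Proliferation markers summed to 81.6 to 136 CPM against 57.2 to 102 CPM, which overlap, with 1 of 6 lower. The part of these shifts, and of gene length, in the levels of the ribosomal protein genes was not tested.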

How the data were processed

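RNA-seq of scWAT from 3 WT and 3 YT-AKO mice was used, grouped by the genotype in the labels. The authors used HISAT2 to map the read pairs to mm10 and featureCounts 2.0.1 to count fragments over GENCODE vM25 exons. The deposited values are raw counts per gene, without normalization, strand, multi-mapped or multi-overlapping fragments. The 37 mitochondrial genes had 0 counts. By identifier, 55141 of 55401 genes matched GENCODE vM21 and took its symbols, and 260 did not. Total counts ran from 17740987 to 21838493, which limits low genes such as Rpl39l and Rpl3l.

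The members, gene lists and named genes were chosen with earlier results of these data known. Named genes were fixed members (Rpl29, Rpsa, Rplp0 to Rplp2, Rps27a, Rps6, paralogue pairs), the 5 largest and 5 smallest log2 fold changes, the 5 highest TPM, the members next to the threshold, the extremes of each list and called neighbours of Rpl29. Other genes, such as Rpl24, Rpl35 and Rpl23a, were named after their values were seen.

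Counts were analysed in R 4.3.3 with edgeR 4.0.16 (TMM, filterByExpr with minimum count 10 and total 15, quasi-likelihood test, no covariate) and Benjamini-Hochberg adjustment over the 16807 genes tested. TPM used summed exon lengths. A pseudogene was a copy where it held at least 10% of a member's 50-base words in vM21 transcripts. Ratios of paralogues had 0.5 counts added. The test was tried on simulated counts first. Replicate numbers did not pair the libraries (correlations 0.139, −0.134 and −0.0911). Alternatives were DESeq2 1.42.0, limma-voom 3.58.1, other scalings and filters, robust estimation, a replicate block, a spline correction for gene length with 6 degrees of freedom, each library left out and, added after the data were seen, the copies, the pseudogenes and TPM. The labels do not say that libraries came from separate litters or days, so p-values measure the spread between these libraries. A result for 1 further gene is not reported here.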

Additional observations from a re-analysis of the deposited data

How the results depend on the processing

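Shares in parentheses are of all tested genes called higher in the same fit. The count of 24 members higher in YT-AKO (12.6%) was 72 with DESeq2 (18%), 68 with no filter (8.63%) and 12 with library totals alone (6.77%). It was 4, all of them paralogues, with the gene length correction (9.59%) and 37 with that correction and without YT-AKO 2 (15.3%). With 1 library left out it was 0 to 60 (0% to 16.9%), where the fits without WT 1 and WT 2 called no gene at all higher. At the study's threshold the count of 0 became 36 with DESeq2 (the study's tool), 33 with no filter, 2 with the length correction and without YT-AKO 2, and 0 to 5 with 1 library left out. The count of 1 lower was 0 to 1 with a library left out, and Rpl29 ran from −4.95 to −4.26 there. In the related lists, 40 higher became 64 with DESeq2, 19 with library totals alone, 19 with the length correction and 0 to 59 with a library left out, and 4 lower became 7, 13 with library totals alone, and 0 to 7. With the replicate block, alone or with the length correction, the members higher and the related genes higher and lower were 0, Rpl29 stayed called (−4.63 and −5.03), the median of the members was 1.08 and 0.83, and the paired test of the ratios had no p below 0.25. The numbers share no pairing in these data. The 81 members above all WT libraries became 33 in TPM. Library totals alone moved the median of all genes to −0.34 and that of the members to 0.90. The share difference of 2.53 percentage points ran from 0.676 (without YT-AKO 2) to 3.5 with a library left out, and the median of the members from 0.56 to 1.62. Rpl30, near 0, turned negative with upper-quartile scaling (−0.050), library totals (−0.39), at least 10 counts in every library (−0.029), the length correction (−0.078), that with the replicate block (−0.00016), that without YT-AKO 2 (−0.43), and in 3 of 6 fits with a library left out (−0.40 without WT 3 to 0.38 without YT-AKO 1). Rpl3l (−0.27) and its ratio to Rpl3 (−0.57) turned without YT-AKO 1 (up to 3.82 and 1.88 without WT 1), the ratio of Rpl7l1 to Rpl7 (0.18, down to −0.40) without YT-AKO 2, and Rpl24 (−0.14), Rps4x (−0.026) and Rpl4 (−0.038) with the length correction and without YT-AKO 2. The cause of these changes was not tested.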
